A study of Mus musculus with 6 samples.

Results

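The 10 genes described here encode cargo receptors of selective autophagy and receptors that mark mitochondria for removal: Sqstm1, Optn, Nbr1, Tax1bp1, Calcoco1, Tollip, Wdfy3, Bnip3, Bnip3l and Fundc1. They were taken by gene symbol as known receptors, and all 10 are present among the 16579 genes of the deposited table. RNA was measured by RNA-seq in 6 libraries of sorted bone marrow megakaryocytes (MKs) of 3-month-old mice. In 3 libraries the mice were Becn1f/f, in which both Becn1 alleles are floxed and no Cre is named, and in 3 they were labelled Becn1f/f;Pf4-iCre, which carry the same floxed alleles and a Cre recombinase driven by Pf4 (platelet factor 4) regulatory sequence, active in the megakaryocytic lineage. The comparison asks how expression in MKs differs when Becn1, an autophagy regulator, is targeted in that lineage. The labels do not say whether each library came from 1 mouse or from a pool, so the tests measure the spread between these libraries.

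Selective autophagy removes chosen cargo, such as protein aggregates, damaged mitochondria or bacteria, through receptors that bind the cargo on one side and proteins of the Atg8 family (LC3 and GABARAP) on the growing autophagosome on the other. Sqstm1 (p62), Nbr1, Optn (optineurin), Tax1bp1 and Tollip recognise ubiquitinated cargo, Calcoco1 is a relative of Tax1bp1 that acts in turnover of the endoplasmic reticulum and the Golgi, and Wdfy3 (Alfy) is a large scaffold that helps to clear aggregates. Bnip3, Bnip3l (Nix) and Fundc1 sit in the outer mitochondrial membrane and bind Atg8 proteins themselves, and Bnip3l is known for clearing mitochondria from maturing red cells. The receptor proteins are largely removed together with their cargo, so RNA does not report on their protein levels.

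The libraries held 16467560 to 17156728 estimated read counts. Becn1 itself, the targeted gene, stood at 84.5, 72.2 and 81.9 FPKM (a fragment count scaled by transcript length and library depth) in Becn1f/f libraries 1, 2 and 3, and at 68.7, 72.5 and 73.0 FPKM in the libraries labelled Becn1f/f;Pf4-iCre. This log2 difference of -0.15 (standard error 0.12) did not pass the test, so the labels were not borne out by a loss of this RNA. The table sums reads over the whole gene and does not separate the floxed exons. A direction given below is therefore that of the libraries labelled Becn1f/f;Pf4-iCre relative to Becn1f/f. The labels give sorting by FACS but no gate. Itga2b (CD41), a surface protein by which MKs are recognised, was at 45.8 to 62.0 FPKM, but the 16 listed MK and platelet markers summed to 286.9 to 397 CPM (counts scaled to a common library size after normalization), against 9188 to 16920 CPM for 14 neutrophil markers. Itga2b was the most abundant of the 16, followed by Itgb3 and Pf4 with means of 21.7 and 13.3 FPKM over the 6 libraries. The other markers had lower means, such as 1.38 FPKM for Gp1ba, 2.09 for Gp9, 1.89 for Tubb1 and 0.275 for Gp6. None of the 16 was at 0 in every library. Less RNA of a cell type and fewer of its cells cannot be told apart in such bulk samples, and receptor levels below are those of the sorted material as a whole.

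Sqstm1 was the most abundant of the 10 receptor RNAs and Tax1bp1 the next. Over the 6 libraries their means were 237.9 ± 80.6 and 142.9 ± 25.6 FPKM (SD, n = 6), which placed them at percentiles 97.1 and 95.1 of the 12256 tested genes. Bnip3l followed at 52.6 ± 7.01 FPKM and Tollip at 40.3 ± 4.38 FPKM (SD, n = 6). Nbr1 was at 22.0 ± 3.86 FPKM, and the other 5 receptors lay within a narrow band from 12.6 ± 0.656 FPKM for Calcoco1 down to 6.34 ± 2.03 FPKM for Optn (SD, n = 6), with Fundc1, Bnip3 and Wdfy3 between them at 11.4, 9.84 and 7.62 FPKM. Of the 9 pairs of neighbours in this order, 3 had ranges that did not overlap: Tax1bp1 above Bnip3l, Tollip above Nbr1 and Nbr1 above Calcoco1. The ranges of all other neighbours overlapped over the 6 libraries, but within single libraries Sqstm1 exceeded Tax1bp1 in 6 of 6 and Bnip3l exceeded Tollip in 6 of 6. Together, Sqstm1 and Tax1bp1 made up 64.2% to 76.5% of the summed FPKM of the 10 genes in each library.

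**Figure D1:**
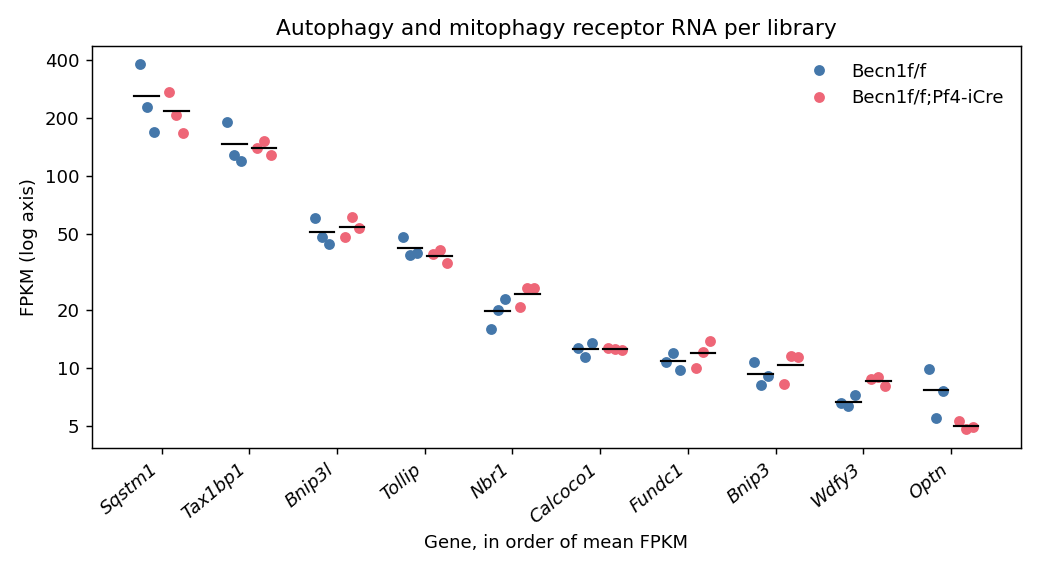
FPKM (log axis) of the 10 receptor genes in each library, in order of mean level. Points are single libraries, blue for Becn1f/f and red for the libraries labelled Becn1f/f;Pf4-iCre, from left to right 1, 2 and 3, and black lines are the means of 3 libraries; the genotypes overlap in FPKM for all genes but Wdfy3 and Optn.

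Between genotypes, most of the receptor RNAs did not pass the test, which does not show that they were unchanged. With the thresholds of the study's methods, a fold change of at least 1.5 and an unadjusted P under 0.05, 1 of the 10 receptors was a differentially expressed gene (DEG), the lower Optn, where 2.3% of all tested genes were DEGs. At an unadjusted P under 0.05 alone, 3 of the 10 passed (Optn lower, Nbr1 and Wdfy3 higher), where 6.31% of all tested genes did. None of the 10 had an adjusted p under 0.05 by edgeR (quasi-likelihood, Benjamini-Hochberg over all tested genes), where 0.0408% of all tested genes did, and none did in DESeq2 either. Separate ranges of CPM in the genotypes were seen for 1 of the 10, Wdfy3, where this held for 10.6% of all tested genes. The 10 log2 fold changes ran from -0.62 to 0.37 with a median of 0.06, beside a median of -0.02 over all tested genes.

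**Figure D2:**
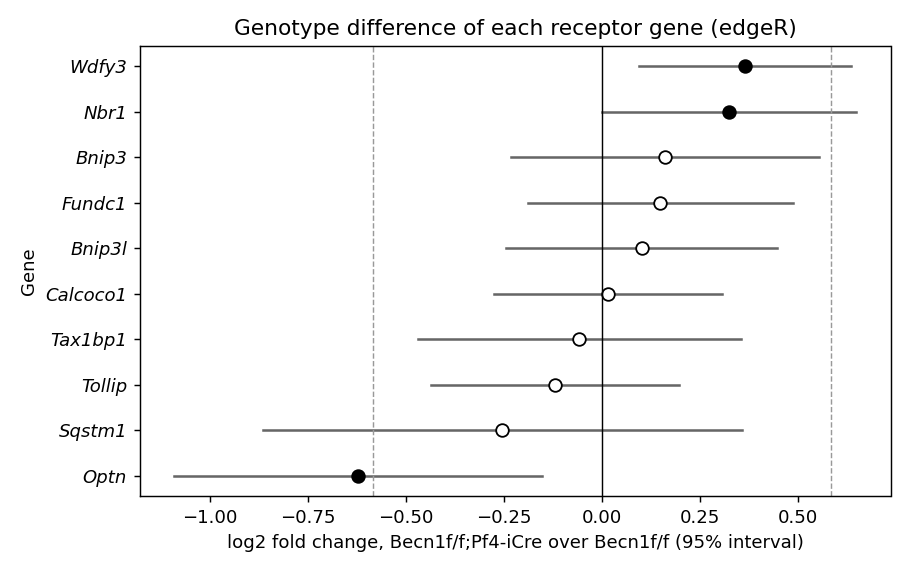
Log2 fold change of each receptor gene in the libraries labelled Becn1f/f;Pf4-iCre over Becn1f/f (x axis), with 95% intervals from edgeR's quasi-likelihood fit over 3 libraries a genotype. Filled points have an unadjusted P under 0.05, dashed lines mark a fold change of 1.5, and 3 of the 10 points, Optn, Nbr1 and Wdfy3, are filled.

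Among the receptors of ubiquitinated cargo, Optn was lower in the libraries labelled Becn1f/f;Pf4-iCre. Optn encodes optineurin, which links ubiquitin on damaged mitochondria and bacteria to LC3 and is switched on by the kinase Tbk1. Its level was 9.92, 5.46 and 7.61 FPKM in Becn1f/f libraries 1, 2 and 3, and 5.29, 4.79 and 4.94 FPKM in the libraries labelled Becn1f/f;Pf4-iCre. The 3 values of the latter were close together and lay below every Becn1f/f value in FPKM, by a margin of 5.46 against 5.29. In CPM the groups touched, at 12.5 in Becn1f/f library 2 and 12.6 in the library labelled Becn1f/f;Pf4-iCre 1. The mean fell from 17.7 ± 5.59 to 11.5 ± 1.00 CPM (SD, n = 3 each), to 64.9% of the Becn1f/f mean. The log2 fold change was -0.62 (standard error 0.21, 95% interval -1.09 to -0.15, unadjusted P = 0.0136 and adjusted p = 0.555 in edgeR). Becn1f/f library 1 carried much of this difference. Without it the log2 fold change of Optn was -0.35 with an unadjusted P of 0.0822 in edgeR, and Optn was no longer a DEG. Without the library labelled Becn1f/f;Pf4-iCre 2 it was -0.57, with an unadjusted P of 0.0432 and a fold change below 1.5.

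The start of the Optn gene is shown because Optn was the receptor past the DEG thresholds. RefSeq places it on the minus strand of chromosome 2, and the stretch below holds the 250 bases before the start, chr2:5064118-5064367 in GRCm38.p6. Capitals mark the core of the hypoxia response element, ACGTG or GCGTG, on either strand.

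Optn: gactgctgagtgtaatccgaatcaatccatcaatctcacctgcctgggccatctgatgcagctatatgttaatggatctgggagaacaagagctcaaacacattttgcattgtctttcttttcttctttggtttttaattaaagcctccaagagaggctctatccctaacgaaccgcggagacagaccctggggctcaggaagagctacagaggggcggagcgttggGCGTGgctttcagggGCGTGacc

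The core occurred 3 times between 250 bases before and 50 bases after the Optn start, 2 of them in the stretch printed, both as GCGTG. At least 3 matches were found in 8.93% of 32851 RefSeq promoters of this length, and at least 1 in 43.8%. Other motifs searched on both strands were the E-box CACGTG of the TFEB family, which contains the hypoxia core, the antioxidant element TGACNNNGC, and AGATAA or TGATAA as GATA sites. None of these was found in the Optn window, where 7.15%, 12.4% and 18.6% of all promoters held them.

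Nbr1, a receptor that shares domains with Sqstm1 and joins it in ubiquitin condensates, was higher in the libraries labelled Becn1f/f;Pf4-iCre at an unadjusted P under 0.05. Its level was 16.04, 20.1 and 23.0 FPKM in Becn1f/f libraries 1, 2 and 3, and 20.7, 26.1 and 26.0 FPKM in the others. Becn1f/f library 3 lay above the lowest of the libraries labelled Becn1f/f;Pf4-iCre, so the groups overlapped. In edgeR its log2 fold change was 0.33 (standard error 0.15, 95% interval 0.00 to 0.65, unadjusted P = 0.0491 and adjusted p = 0.783). Leaving out single libraries gave log2 fold changes of Nbr1 from 0.225 to 0.435, and the unadjusted P stayed under 0.05 in 2 of those 6 fits. The value was 0.225 with an unadjusted P of 0.136 without Becn1f/f library 1. Nbr1 lies 249.9 kb from Becn1 on chromosome 11 (101552149 to 101581951 on the plus strand in GRCm38, GENCODE M21), whereas Sqstm1, on the same chromosome, lies 51.1 Mb away. A link between this position and the level of Nbr1 was not tested.

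Wdfy3 had the most even difference of the 10. Wdfy3 encodes Alfy, a scaffold that binds Sqstm1 and the Atg5 complex and recruits them to aggregates. Its level was 6.54, 6.33 and 7.19 FPKM in Becn1f/f libraries 1, 2 and 3, and 8.75, 8.93 and 8.01 FPKM in the libraries labelled Becn1f/f;Pf4-iCre. Every value of the latter lay above every Becn1f/f value, in FPKM and in CPM. The mean was 92.7 ± 5.09 CPM in Becn1f/f and 119.5 ± 7.47 CPM in the libraries labelled Becn1f/f;Pf4-iCre (SD, n = 3 each), 128.9% of the Becn1f/f mean. In edgeR this was a log2 fold change of 0.37 (standard error 0.12, 95% interval 0.10 to 0.64, unadjusted P = 0.0123 and adjusted p = 0.537), which is below the fold change of 1.5. The exact two-sided permutation test of the CPM values gave p = 0.1, the smallest that 3 libraries against 3 allow. Leaving out single libraries kept the log2 fold change between 0.32 and 0.42, with unadjusted P values up to 0.0502. Within a library, the ratio of Wdfy3 to Optn in FPKM was 0.659, 1.16 and 0.945 in Becn1f/f and 1.65, 1.86 and 1.62 in the libraries labelled Becn1f/f;Pf4-iCre, a pair picked after its values were seen.

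Sqstm1 and Tax1bp1 varied between libraries more than between genotypes. Sqstm1 encodes p62, which gathers ubiquitinated proteins into condensates and also binds Keap1. Its level was 381, 228 and 169 FPKM in Becn1f/f libraries 1, 2 and 3, and 274, 208 and 167 FPKM in the libraries labelled Becn1f/f;Pf4-iCre. The range within a genotype was wider than the distance between the means, and the groups overlapped almost fully. For Sqstm1 the log2 fold change came to -0.25 (standard error 0.28, 95% interval -0.86 to 0.36), so a fold change of 1.5 downwards is inside the interval and one of 1.5 upwards is not. The SD of log2 CPM of Sqstm1 within genotypes was 0.525, at percentile 98.4 of the 1001 genes nearest to it in level.

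Tax1bp1, which recruits the autophagy initiation machinery to Sqstm1 condensates, followed a related pattern. Its level was 190, 128 and 120 FPKM in Becn1f/f libraries 1, 2 and 3, and 139, 151 and 129 FPKM in the libraries labelled Becn1f/f;Pf4-iCre. Becn1f/f library 1 was again the highest of the 6 libraries, and library 3 again the lowest of the Becn1f/f libraries. For Tax1bp1 the log2 fold change came to -0.06 (standard error 0.19, 95% interval -0.47 to 0.36). The ratio of Sqstm1 to Tax1bp1 in FPKM ranged from 1.29 to 2.00 over the 6 libraries.

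Becn1f/f library 1 stood out for some of the receptors, and not for them alone. In CPM it held the highest value of 5 of the 10 genes (Sqstm1, Optn, Tax1bp1, Tollip and Bnip3l) and the lowest value of Nbr1. The summed FPKM of the 10 genes was 746.8 there and 443 to 566 in the other 5 libraries. Sqstm1 and Tax1bp1 made up 76.5% of the sum in Becn1f/f library 1, so it mostly reflects these genes. Becn1f/f library 1 also had the highest summed CPM of the neutrophil markers (16920), of the mast cell, basophil and eosinophil markers (8192) and of the erythroid markers (820.4). The same held for the MK and platelet markers (397) and for most related gene lists described below. Among these were other cargo receptors (1584), kinases and regulators of the receptors (830.4) and the Atg8 family (547.4). This library was not the highest for other mitophagy genes or for macrophage, B-cell, and endothelial and stromal markers. Without it, the log2 fold changes of Sqstm1 and Tax1bp1 turned to 0.17 and 0.22, that of Tollip to 0.03, and none of these passed the test. Wdfy3 without it was 0.39, with an unadjusted P of 0.0121 in edgeR.

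**Figure D3:**
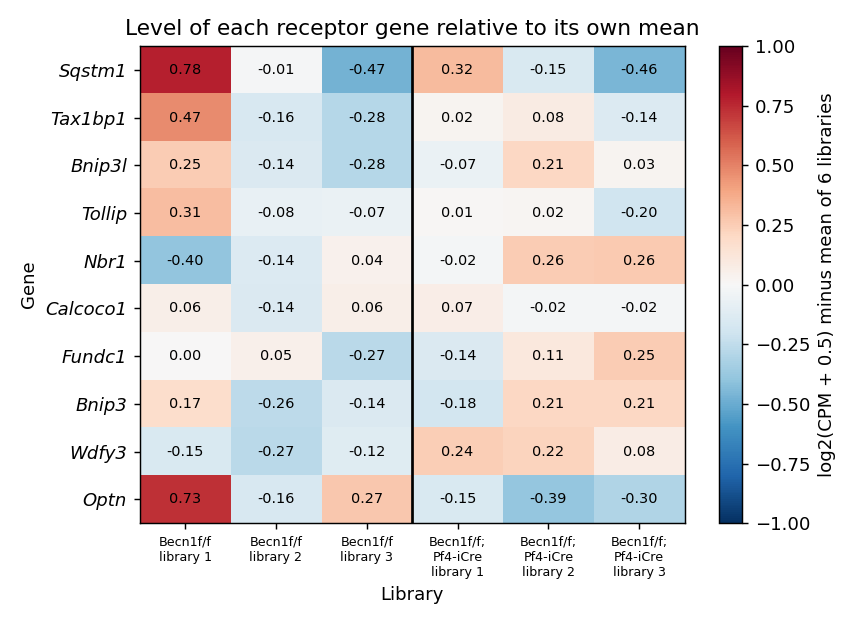
Log2(CPM + 0.5) of each receptor gene (rows) in each library (columns) minus its mean over the 6 libraries, red above and blue below the mean; the black line parts the genotypes. Sqstm1 and Optn in Becn1f/f library 1 have the largest positive values, 0.78 and 0.73, and Wdfy3 is below its mean in all 3 Becn1f/f libraries and above it in the other 3.

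Neither Tollip nor Calcoco1 passed the test. Tollip, an endosomal ubiquitin-binding adaptor that also restrains Toll-like receptor signalling, was at 48.2, 38.5 and 39.6 FPKM in Becn1f/f libraries 1, 2 and 3, and at 39.1, 41.1 and 35.1 FPKM in the libraries labelled Becn1f/f;Pf4-iCre. Its log2 fold change was -0.12 (standard error 0.15, 95% interval -0.44 to 0.20). Calcoco1 was at 12.7, 11.5 and 13.5 FPKM in Becn1f/f libraries and at 12.7, 12.5 and 12.4 FPKM in the others, and the groups overlapped. The log2 fold change of Calcoco1 was 0.02 (standard error 0.13), and its 95% interval of -0.27 to 0.31 leaves out a fold change of 1.5 in either direction. The SD within genotypes of Calcoco1 was 0.0900 on the log2 scale, at percentile 8.29 of genes of like level.

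The 3 receptors of the outer mitochondrial membrane did not pass the test. Bnip3l, the most abundant of them, was at 60.5, 47.9 and 44.3 FPKM in Becn1f/f libraries 1, 2 and 3, and at 48.2, 61.1 and 53.6 FPKM in the libraries labelled Becn1f/f;Pf4-iCre. The groups spanned nearly the same range. Its log2 fold change was 0.10 (standard error 0.16, 95% interval -0.24 to 0.45). Erythroid RNA, in which Bnip3l is abundant, was mostly lower in the libraries labelled Becn1f/f;Pf4-iCre, while Bnip3l had no clear direction. Of the 14 tested erythroid markers 11 were lower and 0 higher at an unadjusted P under 0.05, where 6.31% of all tested genes passed. DEGs made up 7 of the 14, beside 2.3% of all tested genes. The summed level of these markers was 508.7 to 820.4 CPM in Becn1f/f and 399.6 to 521.3 CPM in the libraries labelled Becn1f/f;Pf4-iCre. Hbb-bs, the most abundant, had a log2 fold change of -0.49, and Hba-a1 fell from 738.5 ± 161.7 to 494.2 ± 76.1 FPKM (SD, n = 3 each), although reads of the near-identical globin genes cannot be assigned with certainty. The part of erythroid RNA in the Bnip3l values was not tested.

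Bnip3, a close relative of Bnip3l that is induced by hypoxia, was lower in level. It was at 10.8, 8.14 and 9.07 FPKM in Becn1f/f libraries 1, 2 and 3, and at 8.22, 11.5 and 11.4 FPKM in the libraries labelled Becn1f/f;Pf4-iCre. The groups overlapped over most of their range. For Bnip3 the log2 fold change came to 0.16 (standard error 0.18, 95% interval -0.23 to 0.55). Within single libraries, Bnip3l exceeded Bnip3 by 4.71 to 5.88 times. Fundc1 responds to hypoxia mainly through changes in the phosphorylation of its protein. Fundc1 was at 10.7, 12.02 and 9.72 FPKM in Becn1f/f libraries and at 10.02, 12.1 and 13.8 FPKM in the libraries labelled Becn1f/f;Pf4-iCre. Its log2 fold change was 0.15 (standard error 0.15, 95% interval -0.19 to 0.49).

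The Bnip3 promoter is printed because this gene is a textbook target of hypoxia-inducible factor (HIF), whose other targets are described next. RefSeq places its start on the minus strand of chromosome 7, and the 250 bases before it lie at chr7:138909507-138909756 in GRCm38.p6, with the same capitals as for Optn.

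Bnip3: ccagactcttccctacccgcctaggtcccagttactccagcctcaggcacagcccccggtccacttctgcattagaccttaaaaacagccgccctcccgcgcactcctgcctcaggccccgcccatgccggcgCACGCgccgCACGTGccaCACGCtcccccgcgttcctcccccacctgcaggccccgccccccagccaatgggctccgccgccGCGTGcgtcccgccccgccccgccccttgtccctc

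The hypoxia core matched 5 times in the Bnip3 window, on both strands, and 2 of the matches are the overlapping strands of the single CACGTG. At least 5 matches were found in 1.66% of the 32851 promoters. The E-box was found in the window of 1 receptor gene, Bnip3, out of 8 with a promoter entry (7.15% of all promoters held it). The antioxidant element was found in 1, Tax1bp1 (12.4% of all promoters), and a GATA site in none (18.6%). The hypoxia core was found in 6 of the 8, Bnip3, Calcoco1, Nbr1, Optn, Tax1bp1 and Tollip, and not in Sqstm1 or Fundc1. At least 1 match was found in 43.8% of all promoters. These shares are per promoter entry, whereas the 8 genes have 10 entries and a gene counts if any of its entries holds the motif. Wdfy3 and Bnip3l had no entry.

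Genes that share regulation with the receptors included no DEG, and 3 passed at an unadjusted P under 0.05, a threshold that 6.31% of all tested genes passed. Of 15 tested HIF targets other than Bnip3 and Bnip3l, 7 had a positive and 8 a negative log2 fold change, with a median of -0.02, and 1 passed an unadjusted P under 0.05. This was the glycolytic enzyme Pgk1, which fell from 335.6 ± 38.3 to 265.1 ± 30.5 FPKM (SD, n = 3 each), with -0.33 as its log2 fold change. Ndrg1 and Egln3 came next, with log2 fold changes of 0.26 and -0.27 that did not pass. Of 9 tested targets of NRF2, the factor that Sqstm1 frees from Keap1 and that in turn drives Sqstm1, 2 passed at an unadjusted P under 0.05 (6.31% of all tested genes did), and both were lower. Osgin1 fell by 0.56 on the log2 scale and Gclm, a subunit of the enzyme for glutathione synthesis, by 0.33, from 19.98 ± 0.312 to 15.7 ± 1.48 FPKM (SD, n = 3 each). Hmox1, another NRF2 target, had a log2 fold change of 0.32 and did not pass. The median of the list was -0.055.

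Proteins that the receptors work with gave no call. None of the 5 Atg8 family genes that receptors bind passed an unadjusted P under 0.05, where 6.31% of all tested genes did. Their log2 fold changes lay between -0.10 and 0.10. Map1lc3b, which encodes LC3B, was at 92.7 ± 6.08 FPKM in Becn1f/f and 85.8 ± 8.95 FPKM in the libraries labelled Becn1f/f;Pf4-iCre, and Gabarap at 220.8 ± 24.1 and 215.4 ± 11.3 FPKM (SD, n = 3 each). Map1lc3a had a log2 fold change of 0.10. None of 10 kinases and regulators of receptors passed either, with a range of log2 fold changes from -0.12 to 0.13. Those with the smallest P were Csnk2b, a subunit of casein kinase 2, the Tbk1 adaptor Azi2, and Rb1cc1, which Tax1bp1 recruits, at -0.12, 0.10 and 0.13.

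Among 11 other cargo receptors, 1 passed at an unadjusted P under 0.05, beside 6.31% of all tested genes, namely Atl3, a receptor for turnover of endoplasmic reticulum tubules. Atl3 was at 19.5 ± 1.39 FPKM in Becn1f/f and 24.5 ± 3.88 FPKM in the libraries labelled Becn1f/f;Pf4-iCre (SD, n = 3 each), and its log2 fold change was 0.34 (unadjusted P = 0.0382 and adjusted p = 0.747 in edgeR). Stbd1, which binds glycogen, and Retreg3 had log2 fold changes of 0.39 and 0.23 and did not pass. The median of this list was -0.01. None of 13 tested mitophagy genes outside the receptors passed an unadjusted P under 0.05, where 6.31% of all tested genes did. Of the 13, 11 had a negative log2 fold change. The median of the 13 was -0.11, beside -0.02 over all tested genes. Separate ranges of CPM in the genotypes were seen for 3 of the 13, where this held for 10.6% of all tested genes. Mfn2, a mitochondrial fusion protein, Nipsnap1, which tags damaged mitochondria for Sqstm1 and other receptors, and Phb2, a receptor of the inner membrane, had log2 fold changes of -0.28, -0.36 and -0.18.

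**Figure D4:**
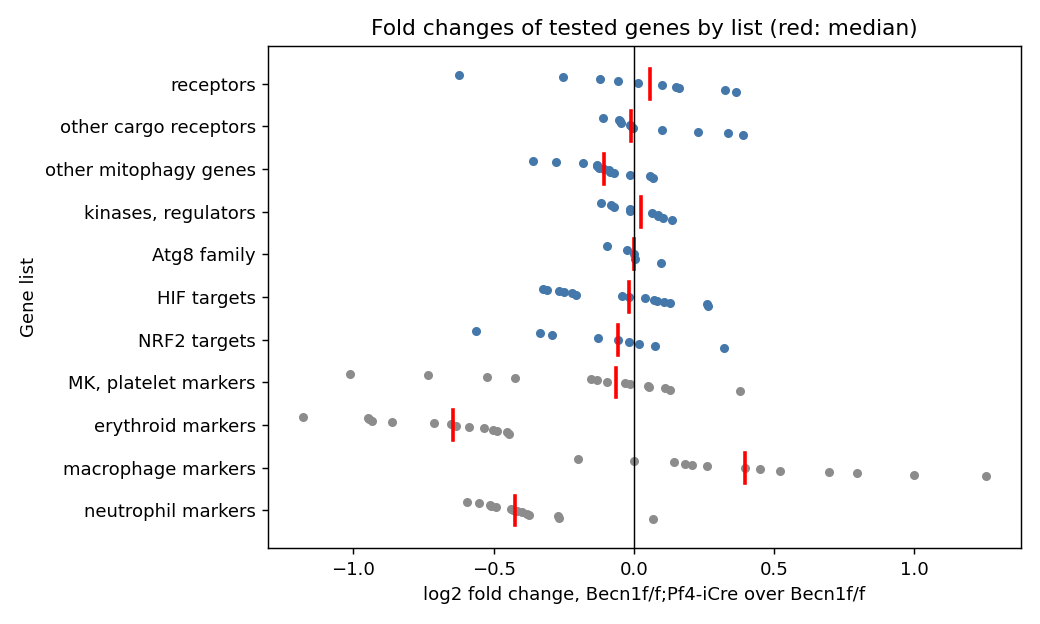
Log2 fold change (x axis) of every tested gene of the receptors, of 6 related gene lists (blue) and of 4 cell type marker lists (grey), with the median of each list in red. The receptor median of 0.06 lies near 0, whereas the erythroid, macrophage and neutrophil markers have medians of -0.64, 0.40 and -0.42.

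The summed marker RNA of 8 cell type lists was compared between the genotypes by an exact permutation test. With 3 libraries against 3 its p cannot go below 0.1, so no list could pass 0.05. The p values of this test were 0.4 to 0.9 after adjustment over the 8, and do not decide whether the cell make-up differed. These sums take in every listed marker in the table, tested or not. Counts of called markers stand beside 2.3% DEGs and 6.31% at an unadjusted P under 0.05 among all tested genes. Of the 13 tested macrophage markers 4 were higher and 0 lower as DEGs, and their summed level was 819.4 to 866 CPM in Becn1f/f and 880.5 to 1083 CPM in the libraries labelled Becn1f/f;Pf4-iCre (exact two-sided permutation test, p = 0.1, the smallest possible, or 0.4 after adjustment over 8 marker lists). The 4 were C1qc, Cd163, Mrc1 and Siglec1 (log2 fold changes of 0.80, 0.70, 1.26 and 1.00), here as for the other DEGs of marker lists named after their values were seen. Csf1r and Cd68, the most abundant of them, had log2 fold changes of 0.26 and 0.14, which did not pass. Of the 14 neutrophil markers 5 were lower at an unadjusted P under 0.05 and 1, Mmp9, was a DEG (-0.59), and the summed levels were 11660 to 16920 and 9188 to 12390 CPM. S100a8 and S100a9 led this list, with log2 fold changes of -0.27 and -0.40 that did not pass. The 14 tested MK and platelet markers included 1 DEG, the lower Pf4 (log2 fold change of -1.01), and had Itga2b and Itgb3 as the most abundant (-0.15 and 0.11). All 16 listed summed to 286.9 to 397 CPM in Becn1f/f and 300.4 to 379.1 CPM in the libraries labelled Becn1f/f;Pf4-iCre. The B-cell list had 1 lower DEG of 8 tested, Igll1 (-0.85), Cd79a and Cd79b at -0.23 and -0.22, and summed to 145.8 to 263.8 and 147.7 to 196.1 CPM. The T and NK cell list had 0 DEGs of 6, with Nkg7 and Cd3g at -0.40 and 0.22 (53.1 to 66.5 and 40.2 to 55.7 CPM), the mast cell, basophil and eosinophil list 0 of 7, with Prg2 and Prss34 at -0.40 and -0.26 (4146 to 8192 and 3248 to 5040 CPM), and the endothelial and stromal list 1 lower DEG of 5, Kdr (-0.80), with Cdh5 and Cxcl12 at 0.35 and -0.27 (14.2 to 19.7 and 11.6 to 22.6 CPM). No listed marker was at 0 in every library. The part of these cells in the lower Optn and the higher Nbr1 and Wdfy3 was not tested.

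The larger the GC content of a gene, the lower its log2 fold change tended to be (Spearman's rho of -0.34 over 12078 tested genes, which share the libraries). Longer genes tended to have a higher log2 fold change (Spearman's rho of 0.19 over the same genes). Optn, Nbr1 and Wdfy3 have 50.7%, 47.7% and 51.8% GC in their longest annotated transcript, near the median of 49.7%, whereas Fundc1, Tax1bp1, Bnip3 and Bnip3l lie at percentiles 3.3 to 12.1. Wdfy3 and Nbr1 have the longest transcripts of the receptors, at 14274 and 4789 bases, and that of Optn has 2614. With the trends of GC content and length taken out of each library, a setting chosen after the data were seen, the log2 fold changes of Optn, Nbr1 and Wdfy3 were -0.59, 0.30 and 0.32, with unadjusted P of 0.0264, 0.0417 and 0.00566 in edgeR. Those of Fundc1, Bnip3, Bnip3l and Tax1bp1 moved to 0.05, 0.10, 0.04 and -0.14.

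**Figure D5:**
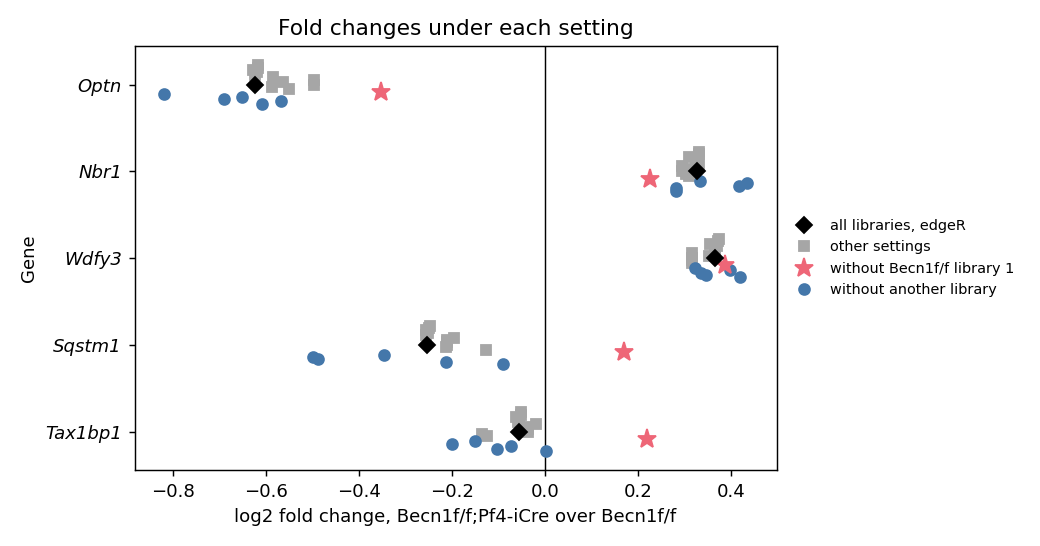
Log2 fold change (x axis) of 5 receptor genes under each setting. Black diamonds are the edgeR fit of all libraries, red stars leave out Becn1f/f library 1, blue points leave out another library, and grey squares are other tests, filters and scalings; Wdfy3 stays between 0.32 and 0.42, while Sqstm1 and Tax1bp1 cross 0 without Becn1f/f library 1.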

How the data were processed

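Genotype and replicate number were read from the sample labels, and each library was counted as 1 sample (chi-square per degree of freedom between replicates of 15.3 to 50.2). Per the study's methods and the submitters' processing notes, low-quality and adapter reads were removed and HISAT was used for mapping; Bowtie2 and the builds GRCm39 and mm39 are also named there, and the counting tool is not given in the sources used here. The authors deposited estimated counts, which are not normalized and not whole for 10.3% to 11.3% of genes, and FPKM values scaled by the authors for length and depth. A further 16 per-sample columns (4 of a library that matches no sample here) and 8 columns of group means were not used.

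Estimated counts were rounded, filtered with filterByExpr (12256 of 16579 genes), and TMM-normalized. The quasi-likelihood test of edgeR 4.0.16 (R 4.3.3) had genotype as its single term, and p was adjusted by Benjamini-Hochberg over all tested genes. The standard error is the log2 fold change over the square root of F. The study used DESeq2; here DESeq2 1.42.0 and limma 3.58.1 on log2(FPKM + 1) were alternatives. The edgeR, DESeq2 and limma fits with genotype alone were tested on simulated data, limma there on log2(CPM + 1). The other settings and the permutation test were not. Counting error is small beside the spread of 3 libraries a genotype, and an exact permutation test cannot go below p = 0.1.

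The receptor genes and all gene lists were chosen with earlier results of these data known. Named were all 10 receptors, Becn1, up to 3 genes of each pathway list by smallest P, and the 2 markers of highest mean FPKM in each cell type list; single DEGs of marker lists and the Wdfy3 to Optn ratio were added after their values were seen. Marchf5 and Ero1a were matched by gene ID, 1 erythroid marker (Ahsp) had no match. Positions come from GENCODE M21 and promoters from RefSeq, both on GRCm38, and no position comes from the deposited table. Of the mitophagy list, 1 gene is not reported here.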

Additional observations from a re-analysis of the deposited data

How the results depend on the processing

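The count of 1 DEG among the 10 receptors was unchanged with DESeq2 or its size factors, with upper-quartile scaling, without a filter or with a minimum of 10 counts, and with the GC and length trend taken out. It was 0 with an adjusted p under 0.05, in the 3 limma fits on log2(FPKM + 1), log2(FPKM + 0.1) or with a mean FPKM of at least 1, and with the replicate block, with or without the GC and length trend taken out, and 3 without a fold threshold. The 6 fits that each left out 1 library gave 0 to 1 receptor DEGs, with 0 without Becn1f/f library 1 or the library labelled Becn1f/f;Pf4-iCre 2, and 225 to 410 DEGs among all genes. The total of 282 DEGs became 5 with an adjusted p under 0.05, 773 without a fold threshold, and 110 and 136 with limma on log2(FPKM + 1) without and with the FPKM filter; it was 421 with limma on log2(FPKM + 0.1) and 373 without a filter on low counts. Deviations of same-numbered libraries from their genotype means had correlations of 0.06, -0.31 and 0.21 across genes. These had no common sign, and they do not decide whether the number pairs the libraries, which the labels do not say. With the replicate block Optn stood at -0.58 (log2, unadjusted P of 0.00775 in edgeR), under a fold change of 1.5, and 296 genes were DEGs. Of 170 fits of a receptor under an alternative, 153 kept direction and side of P 0.05, 10 lost the unadjusted P under 0.05 (8 of them for Nbr1), and 7 changed direction, all on leaving out 1 library: Sqstm1 (0.17), Tax1bp1 (0.22) and Tollip (0.025) without Becn1f/f library 1, Calcoco1 without Becn1f/f library 2 (-0.049) or the library labelled Becn1f/f;Pf4-iCre 1 (-0.01), Tax1bp1 without the library labelled Becn1f/f;Pf4-iCre 3 (0.003), and Bnip3l without Becn1f/f library 3 (-0.007). Leaving out 1 library, log2 fold changes ran from -0.499 to 0.169 for Sqstm1, -0.2 to 0.219 for Tax1bp1, -0.049 to 0.059 for Calcoco1, -0.186 to 0.025 for Tollip and -0.007 to 0.281 for Bnip3l. The smallest adjusted p of any receptor under any alternative was 0.236, for Optn without Becn1f/f library 2; the causes of these changes were not tested.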
